A study of Mus musculus with 7 samples.

Results

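Genes with 5-hydroxymethylcytosine (5hmC) peaks at day 5 and at day 10 of chondrogenic differentiation of ATDC5 cells were compared, using the gene symbols that the authors had assigned to the peaks. A gene was placed by whether its symbol stood in the day 5 list only, in both lists or in the day 10 list only, and peaks with no symbol (---) were left out of the gene classes. There were 558 genes of the day 5 list only (day 5-only genes), 510 genes of both lists (shared genes) and 1218 genes of the day 10 list only (day 10-only genes). These 2286 genes were part of the 3307 named in all 4 peak lists of the series. They rested on 1231 of 2058 day 5 peaks and 2409 of 4164 day 10 peaks.

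ATDC5 is a mouse chondroprogenitor line derived from a teratocarcinoma, and all groups were the unmodified line, induced to form chondrocytes with insulin, transferrin and selenite. 5hmC was captured from DNA of day 5 (2 samples, replicates 1 and 3) and of day 10 (2 samples, replicates 1 and 3), and the samples of a day were merged before peaks were called. DNA captured for 5-methylcytosine (5mC) was profiled at day 0, before induction, and at day 10 in 1 sample each, and 1 sample was day 0 input DNA. The labels give all day 5 and day 10 samples the stage of differentiating chondrocytes and the day 0 samples that of chondroprogenitors. The days used here come from the labels, and the profiles described in the text of the study are of days that differ from them in part.

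5hmC is made from 5mC by the TET dioxygenases and can be carried further to an unmodified cytosine. In many tissues it lies at enhancers and along the bodies of transcribed genes, and less so at the starts of genes with CpG islands. In cartilage, SOX9 with SOX5 and SOX6 drives the genes of the matrix, and RUNX factors, Hedgehog and parathyroid hormone-related peptide (PTHrP) signals pace the later steps of maturation.

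The lists give the position of each peak and no height, so a gene without a symbol in a list is one with no peak past the authors' limit of 10-fold enrichment, not one without 5hmC. The median width at the day 5-only genes was 799.5 bp and at the day 10-only genes 143 bp. At the shared genes it was 850 bp in the day 5 list and 158 bp in the day 10 list. The part of this difference in the results below was not tested, beyond the alternatives named. The depth is unknown, and intervals are 95% Wilson intervals for shares and Newcombe intervals for differences, which cover counting error over genes or peaks only. With 1 merged list for each day there was no spread between replicates and no test.

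Sequences of peaks were read to show what lies under a 5hmC site of each class. In the lines below the letters are the plus strand of GRCm38, and capitals mark the strings TGACTCA (AP-1, the dimers of FOS and JUN proteins), TTGGCA (nuclear factor 1, NF1), AACCACA (RUNX) and ACAAAGG or ACAATGG (SOX), on either strand. For the day 5-only genes the central 200 bases of a peak are shown, chosen after their values were seen, since none of the 68 peaks at the named genes of this class was narrower than 397 bp.
Pion, day 5, chr5:21248971-21249170: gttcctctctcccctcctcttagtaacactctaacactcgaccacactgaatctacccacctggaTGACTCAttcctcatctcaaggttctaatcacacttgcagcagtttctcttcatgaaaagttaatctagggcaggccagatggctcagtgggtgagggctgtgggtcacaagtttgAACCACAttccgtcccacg
Bmper, day 5, chr9:23354441-23354640: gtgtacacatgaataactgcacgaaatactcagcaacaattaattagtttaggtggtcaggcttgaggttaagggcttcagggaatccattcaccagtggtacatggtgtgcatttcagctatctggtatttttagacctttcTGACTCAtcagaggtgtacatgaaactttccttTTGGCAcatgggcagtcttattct
Ptch1, day 5, chr13:63513512-63513711: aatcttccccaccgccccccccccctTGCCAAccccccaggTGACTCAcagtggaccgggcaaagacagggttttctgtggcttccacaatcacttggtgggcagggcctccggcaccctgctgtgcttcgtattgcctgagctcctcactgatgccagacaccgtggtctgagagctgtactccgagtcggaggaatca
The Pion and Ptch1 peaks reached into the 5000 bp upstream of an annotated transcript start inside the gene, and the Bmper peak was intronic. Ptch1 is the receptor of Hedgehog ligands and Bmper binds bone morphogenetic proteins (BMPs). For the shared and the day 10-only genes the day 10 peaks are shown whole.
Tln2, day 10, chr9:67446220-67446457: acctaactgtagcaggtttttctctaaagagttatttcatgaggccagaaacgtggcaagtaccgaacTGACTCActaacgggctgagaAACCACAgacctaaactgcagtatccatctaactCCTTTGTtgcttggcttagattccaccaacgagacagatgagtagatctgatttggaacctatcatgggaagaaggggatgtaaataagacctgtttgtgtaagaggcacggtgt
Foxp1, day 10, chr6:99427422-99427606: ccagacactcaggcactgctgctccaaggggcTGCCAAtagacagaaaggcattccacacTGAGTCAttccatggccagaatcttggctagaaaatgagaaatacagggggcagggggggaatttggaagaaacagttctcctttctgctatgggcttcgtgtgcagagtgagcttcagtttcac
Sorcs2, day 10, chr5:36111223-36111362: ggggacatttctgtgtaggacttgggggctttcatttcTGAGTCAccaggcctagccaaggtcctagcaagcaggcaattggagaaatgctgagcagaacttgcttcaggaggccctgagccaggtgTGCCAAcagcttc
Bnc2, day 10, chr4:84362366-84362541: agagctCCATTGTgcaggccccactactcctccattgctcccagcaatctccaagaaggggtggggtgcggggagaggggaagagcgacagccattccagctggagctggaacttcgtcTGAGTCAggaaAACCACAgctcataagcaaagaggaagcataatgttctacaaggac
Col5a1, day 10, chr2:27881358-27881498: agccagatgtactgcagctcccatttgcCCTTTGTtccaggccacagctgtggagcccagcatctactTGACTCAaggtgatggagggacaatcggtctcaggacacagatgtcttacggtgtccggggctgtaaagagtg
Spnb2, day 10, chr11:30220961-30221114: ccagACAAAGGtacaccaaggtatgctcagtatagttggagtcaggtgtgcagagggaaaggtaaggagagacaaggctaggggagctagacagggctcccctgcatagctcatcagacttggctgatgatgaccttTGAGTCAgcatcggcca
The Tln2, Sorcs2 and Foxp1 peaks were intronic, and none of the 3 overlapped a day 5 peak. Tln2 codes for talin 2, which links integrins to actin, and Col5a1 for a chain of type V collagen, whose peak lay at -5.00 kb from the start. Bnc2 is a zinc finger factor of mesenchymal cells, and Spnb2 is an older symbol of the spectrin gene Sptbn1. These 9 sequences hold 1634 bases and were picked for carrying the most kinds of string. Ties went first to sequences with an AP-1 string and then to genes with more peaks. All 9 hold an AP-1 string, and by this choice they say nothing of how common a string is.

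Of the 1068 genes named in the day 5 list, 510 (47.8%, 44.8 to 50.8) were named in the day 10 list too. Of the 1728 genes named in the day 10 list the shared genes were 29.5% (27.4 to 31.7). As a background, the day 5 list named 4.61% and the day 10 list 7.38% of 21924 annotated protein-coding genes, and 2.2% stood in both, 2.41% in the day 5 list only and 5.18% in the day 10 list only. When the day 10 list was restricted to its widest peaks, as many as the day 5 list holds, the share of day 5 genes found again was 32.9%. The classes then held 717 day 5-only, 351 shared and 595 day 10-only genes, so the day 10-only class was no longer the larger of the classes of 1 list.

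Genes differed in how many peaks they carried. Of the day 5-only genes, 526 of 558 had a single peak and the highest number was 4. The shared genes had 1.25 day 5 peaks and 1.72 day 10 peaks on average, and 39.2% of them had at least 2 day 10 peaks. Of the day 10-only genes, 18.8% had at least 2 peaks and the highest number was 7. Among the shared genes, 171 had more peaks at day 10, 41 had more at day 5 and 298 had equal numbers.

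Foxp1, a forkhead factor active in limb skeletal development, had most peaks of all genes, with 6 at day 5 and 13 at day 10. They were spread over 597.4 kb of the gene on chromosome 6, from 98925338 to 99522721 on the minus strand, and 4 of the 6 regions of day 5 had a day 10 peak within them. Bre (Babam2 in the annotation), which codes for a subunit of deubiquitinase complexes of DNA repair, had 5 peaks at each day and overlap at 4 of them. Sorcs2, a sorting receptor, had 3 and 6. Maml3, a coactivator of Notch signalling, had 2 and 7. Fbn1, which codes for the microfibril protein fibrillin 1, had 4 and 4. Each of these genes had regions common to both lists and others in 1 list.

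Other shared genes had no region in common. Limch1, which codes for an actin-binding protein of stress fibres, had 1 peak at day 5 and 7 at day 10, and the nearest pair lay 34377 bp apart. Wwox, a tumour suppressor oxidoreductase, had 1 and 7, at least 79489 bp apart, and 1700112E06Rik (Lrmda in the annotation) had 1 and 7, at least 36925 bp apart. In Dlgap2, a postsynaptic scaffold gene, and Msi2, which codes for an RNA-binding Musashi protein, peaks of the days did overlap. Both genes had more peaks at day 5, with 4 and 3 in each gene, unlike the other 8 shared genes plotted.

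**Figure D1:**
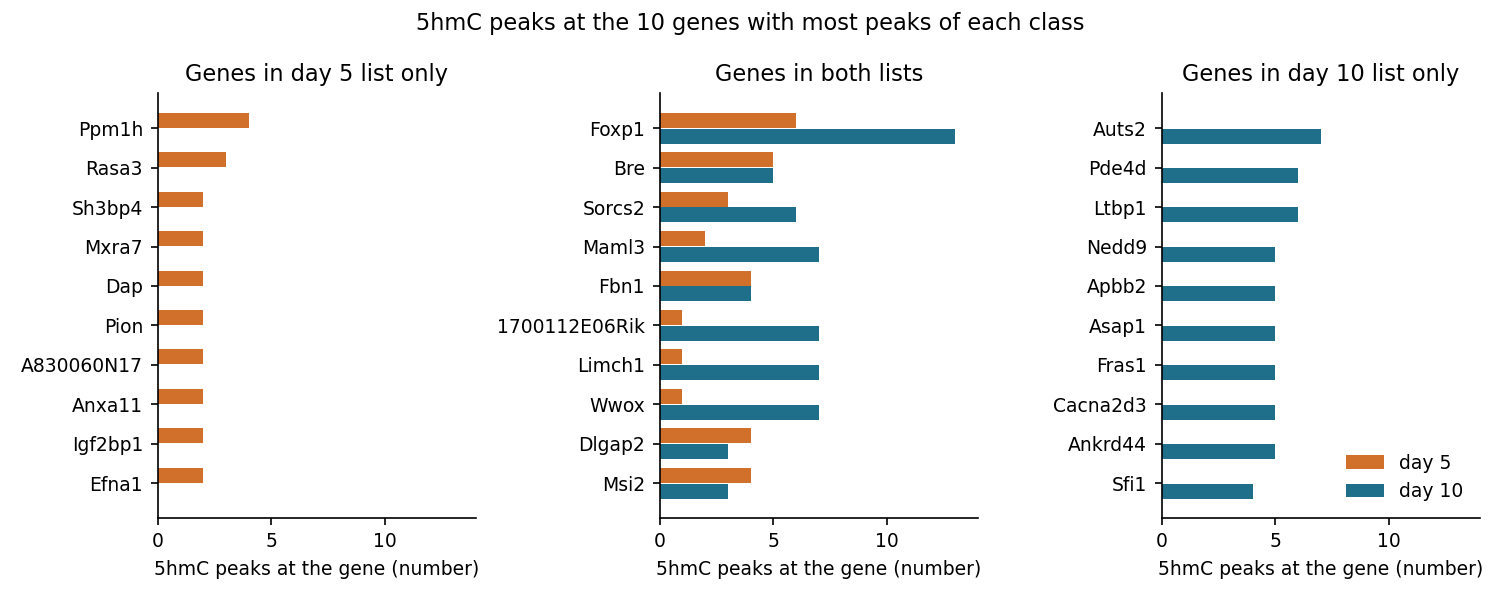
Number of 5hmC peaks (x axis) at the 10 genes with most peaks of each class (y axis; genes with a peak within 10000 bp of their annotated position), with day 5 in orange and day 10 in blue; each bar is the count in 1 merged list. Foxp1 reached 6 and 13 peaks, whereas the genes of the day 5 list only had between 2 and 4.

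Among the day 5-only genes, Ppm1h, a protein phosphatase, had 4 peaks over 267.0 kb, and Rasa3, a GTPase-activating protein of Ras, had 3 over 110.7 kb. Mir3098, a microRNA gene, also had 3 by its symbol, but none within 10000 bp of the annotated gene, and it was left out of the plot. The other 8 genes plotted had 2 each. They included Igf2bp1, which binds the mRNA of insulin-like growth factor 2, Efna1, an ephrin ligand, and Anxa11, a calcium-dependent annexin. Among the day 10-only genes, Auts2, a nuclear regulator linked to Polycomb complexes, had 7 peaks over 1106 kb. Pde4d, a phosphodiesterase of cyclic AMP, had 6 over 1504 kb. Ltbp1, which holds latent TGF-beta in the matrix, had 6 over 386.9 kb. Nedd9 and Asap1, a scaffold and an ARF regulator of focal adhesions, had 5 each, as did Fras1, of the basement membrane.

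**Figure D2:**
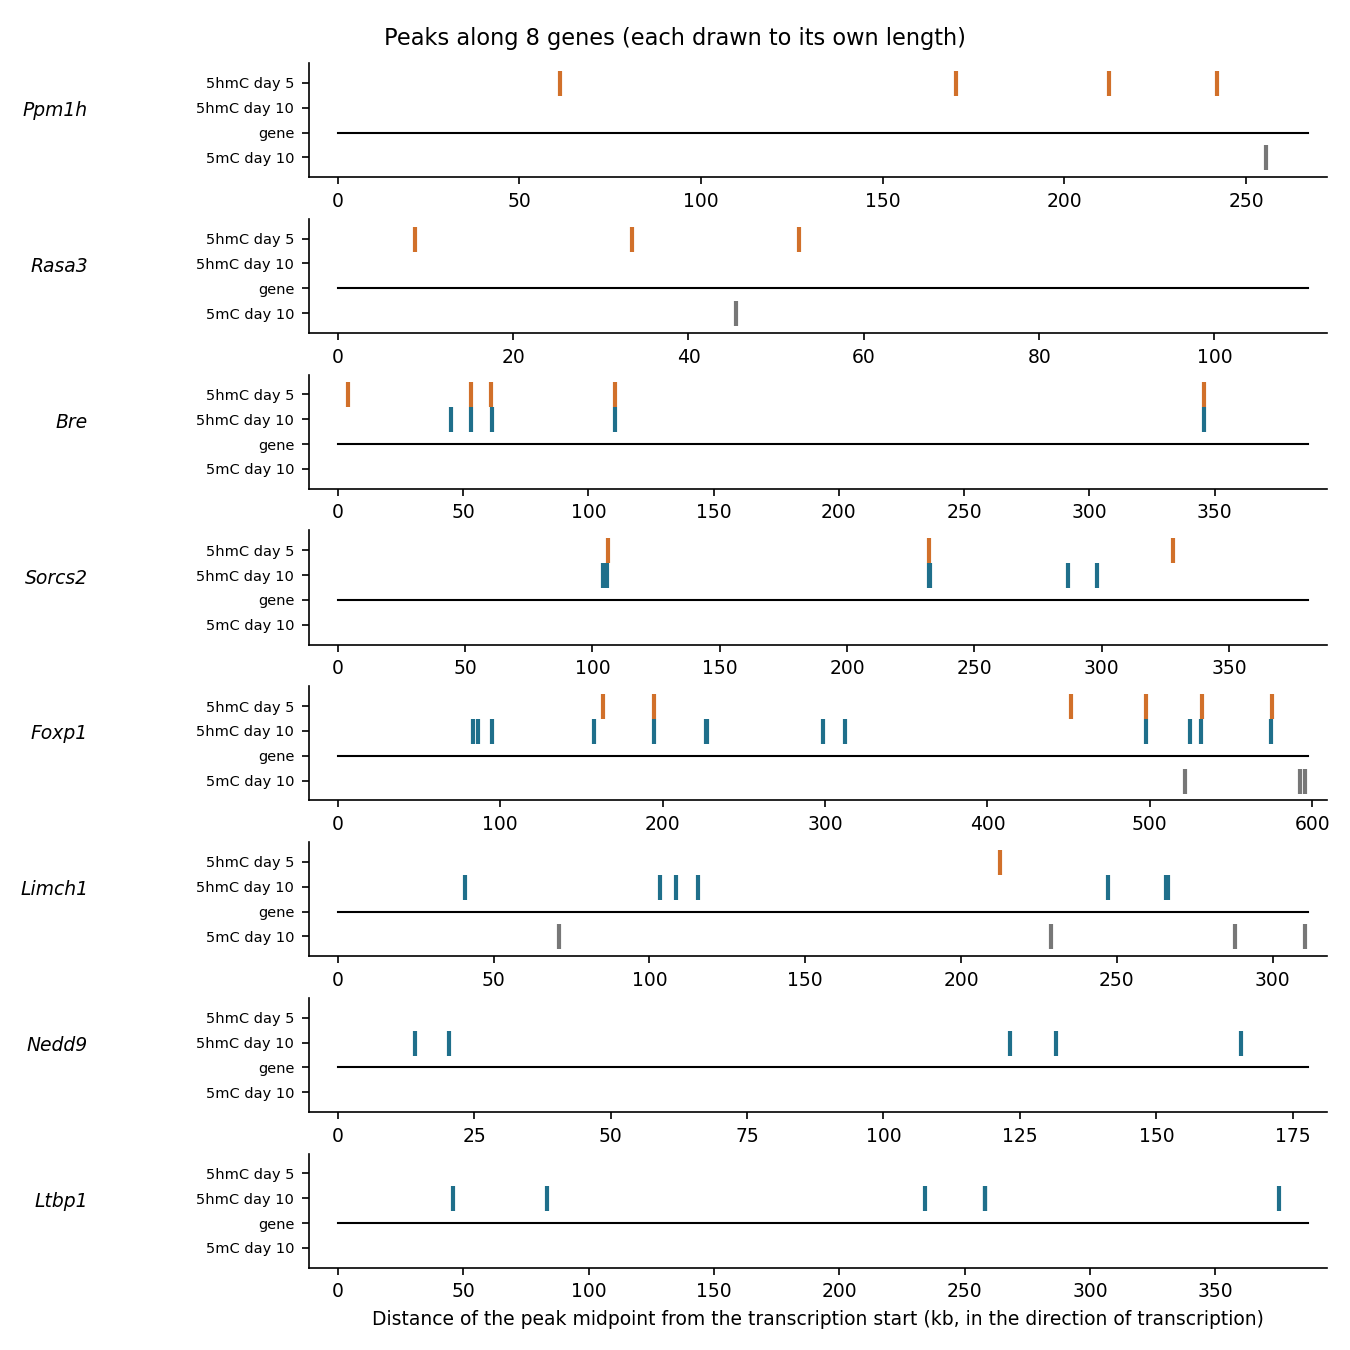
Midpoints of peaks along 8 genes (x axis, kb from the transcription start in the direction of transcription; each gene to its own length), with 5hmC peaks of day 5 (orange) and day 10 (blue) above the gene line and 5mC peaks of day 10 (grey) below it. Bre shows 4 positions with both days and Limch1 none.

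Genes named in both lists were long. The median length was 47.8 kb for day 5-only genes (quartiles 21.6 and 100.1 kb), 118.4 kb for shared genes (56.2 and 233.4 kb) and 68.9 kb for day 10-only genes (27.7 and 142.7 kb). Over all protein-coding genes it was 17.4 kb. Of the longest decile of protein-coding genes, at least 109.9 kb, the day 5 list named 17.2% (15.6 to 18.8), the day 10 list 29.9% (28.0 to 31.9) and both lists 12% (10.7 to 13.4). In the shortest decile the lists named 0.593% and 1.32%. The share of day 5 genes found again at day 10 was 69.9% in the longest decile and 46.5% in the next, and between 15.2% and 35% in the 8 shorter ones. In each decile this share was above the share of all its genes named at day 10, which was 29.9% in the longest.

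**Figure D3:**
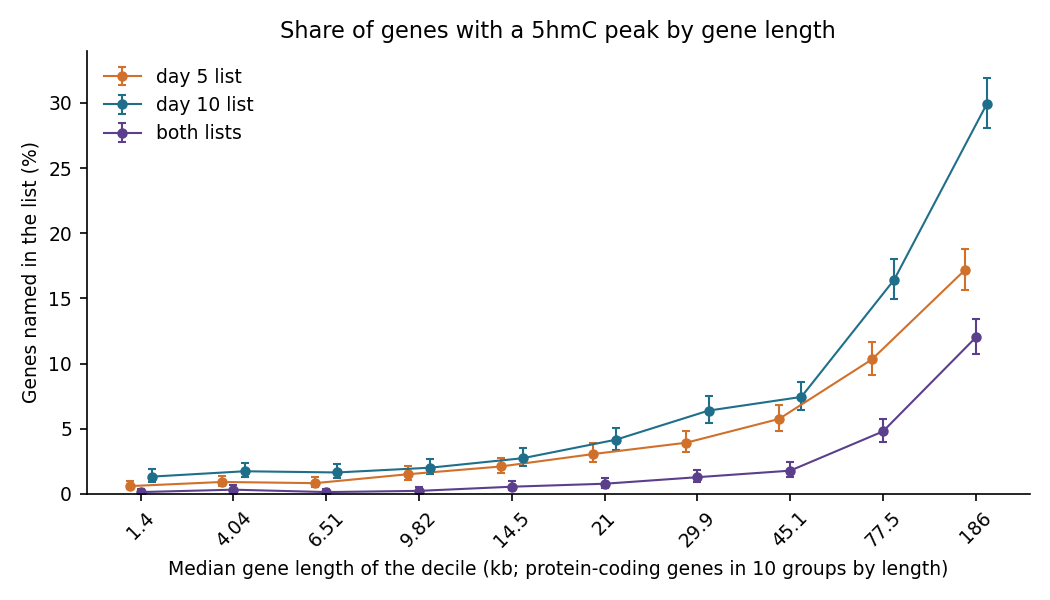
Share of protein-coding genes named in the day 5 list, the day 10 list and both (y axis, percent, with 95% Wilson intervals) in 10 groups of rising gene length (x axis, median length in kb). The shares were highest in the longest group, at 17.2%, 29.9% and 12%.

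A gene can be shared while its modified sites differ. In 324 of the 510 shared genes (63.5%, 59.3 to 67.6) at least 1 day 5 peak overlapped a day 10 peak. In the other 186 (36.5%, 32.4 to 40.7) no peaks overlapped, and the nearest pair lay 24.4 kb apart at the median (quartiles 9.10 and 59.1 kb). Of these, 52 had a pair within 10 kb and 22 had none within 100 kb. The share with overlap was 61.6% (56.1 to 66.9) in genes with 1 day 10 peak, 63.5% (53.9 to 72.1) with 2 and 69.8% (60.0 to 78.1) with 3 or more. Of single peaks at the shared genes, 54.9% of day 5 peaks and 43.5% of day 10 peaks overlapped one of the other day. Overlapping peaks mostly carry the same symbol, which places their gene among the shared ones, so these shares do not hold for all peaks. Overlap was found in 0.168% of peaks at day 5-only genes and 0.0654% at day 10-only genes. Among peaks with no gene it was found in 31.2% at day 5 and 18.6% at day 10.

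Several regulators of skeletal cells were shared through different sites. Runx2, the factor of osteoblasts and hypertrophic chondrocytes, had 1 peak at day 5 and 2 at day 10, with the nearest pair 22826 bp apart. Runx1 had 2 and 3, all intronic, 3899 bp apart at the nearest. Smad3, which carries TGF-beta signals, had 1 and 3, 13059 bp apart, and Trps1, a zinc finger repressor of growth plate chondrocytes, had 1 and 1, 20537 bp apart. In Sox5, the day 10 peak on chromosome 6 from 143845615 to 143845800 lay within a day 5 peak, while the other day 5 peak and 4 day 10 peaks stood alone. In Nfib, an NF1 factor, 1 of 3 day 10 peaks overlapped the day 5 peak.

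Positions were read against the transcripts of the assigned gene in the GENCODE annotation. By any overlap, with the 5000 bp upstream of any annotated start (promoter) taken first, promoters held 23.3% of day 5 peaks and 18.3% of day 10 peaks, a difference of -4.97 points (-7.85 to -2.18). Coding exons held 12.6% and 4.0% (-8.64 points, -10.7 to -6.69). First introns held 28.2% and 32.7% (4.48 points, 1.30 to 7.59) and other introns 27.2% and 35.8% (8.62 points, 5.42 to 11.7). Wider peaks reach more features, and by the midpoint alone, which does not depend on width, the differences were -1.95 points for promoters (-4.70 to 0.697), -2.94 for coding exons (-4.41 to -1.66), 2.12 for first introns (-1.13 to 5.30) and 2.91 for other introns (-0.412 to 6.17). Of these, the interval for coding exons alone left out 0.

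The classes differed in position within a day as well. By the midpoint, 25.2% (21.8 to 28.8) of peaks at day 5-only genes were in promoters, against 14.3% (11.8 to 17.2) of day 5 peaks at shared genes. At day 10 the values were 20.6% (18.6 to 22.7) at day 10-only genes and 12.3% (10.2 to 14.6) at shared genes. Other introns held 39.6% of day 5 and 41.7% of day 10 midpoints at shared genes, and 28.2% and 34.4% at the genes of 1 list. The median distance from the gene start was 18.7 kb at day 5-only genes, 54.6 and 65.7 kb at shared genes (day 5 and day 10) and 26.5 kb at day 10-only genes, in the order of their gene lengths. Within genes of at least 10 kb each of 5 equal parts of the body held between 16.8% and 23.7% of the peaks, so no end of the gene stood out. Between the days, peaks at day 10-only genes were in promoters less often than those at day 5-only genes by 4.58 points (midpoint, interval of the difference -8.73 to -0.627).

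The AP-1 string was most frequent at the genes named at day 5 alone. It was present in 23.9% (20.7 to 27.5) of 200 bp windows around the midpoints at day 5-only genes and in 2.95% of windows of equal length 2000 bp outside the peaks, a ratio of 8.11. At shared genes it was present in 14.8% (12.2 to 17.7) of day 5 windows and 9.78% (7.99 to 11.9) of day 10 windows, with 3.38% and 4.04% in the flanks. At day 10-only genes it was present in 9.74% (8.35 to 11.3), against 3.46% in the flanks, a ratio of 2.81. Median widths of the day 10 peaks were 143 bp at day 10-only and 158 bp at shared genes, so many day 10 windows reached past the peak edges. At day 5, the shared genes were 9.15 points below the day 5-only genes (interval of the difference -13.5 to -4.75). At day 10, shared and day 10-only genes differed by 0.0453 points (-2.35 to 2.60). Peaks with no gene had the string in 17.9% of windows at day 5 and 8.66% at day 10.

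Within the shared genes, the regions common to both days held it in 11.7% (8.75 to 15.5) of 350 day 5 windows and 12.04% (9.15 to 15.7) of 382 day 10 windows, which are largely the same DNA. Away from them, the share was 18.5% (14.4 to 23.4) in 287 day 5 windows and 8.05% (5.97 to 10.8) in 497 day 10 windows. Overlap minus no overlap was -6.75 points at day 5 (-12.5 to -1.20) and 3.99 points at day 10 (0.0199 to 8.19), so the regions found again at day 10 held the string less often than the other day 5 regions. Among day 5 peaks that overlap no day 10 peak, shared minus day 5-only genes was -5.48 points, with an interval from -10.9 to 0.402. The lower share at shared genes at day 5 was present in introns (14.6% against 22.5%), in promoters (12.4% against 24.0%), in genes over 100 kb (15.3% against 25.2%) and in genes of at most 100 kb (13.4% against 23.1%). In coding exons it was 16.4% against 22.6%, a difference of -6.19 points whose interval included 0 (-18.1 to 7.20).

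The NF1 string was present in 17.2% (14.4 to 20.4) of windows at day 5-only genes, 20.3% and 19.8% at shared genes (day 5 and day 10) and 20.5% (18.6 to 22.6) at day 10-only genes, with 10.3% to 11.5% in the flanks. Day 5-only minus day 10-only genes was -3.35 points (-6.86 to 0.431). Over whole peaks, which differ in width, the shares were 45.6% and 17.1%. In the windows of all day 5 peaks, shared minus day 5-only genes was 3.08 points (-1.30 to 7.42). By position, this difference was 0.600 points in introns and 3.73 in promoters, and both intervals included 0. In coding exons it was 19.4 points (5.63 to 33.2), from 21 of 61 and 14 of 93 peaks. In coding exons at day 10, shared minus day 10-only genes had the other sign, -5.45 points (-21.4 to 12.2). RUNX strings were present in 8.48% to 8.87% of windows, with 4.71% to 6.12% in the flanks. SOX strings, in 6.03% to 8.08% of windows, stood at 6.18% to 8.02% in the flanks, and each interval of the difference from the flanks included 0. TEAD strings (ACATTCC) were present in 3.20% to 5.46%, with 1.94% to 2.88% in the flanks. The difference from the flanks also had an interval including 0 for RUNX at shared genes at day 5 (2.35 points, -0.0546 to 5.05). The same held for TEAD at day 5-only genes (1.26 points, -0.224 to 3.12). A string is not a bound site, and the strings of different factors were counted independently of each other.

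**Figure D4:**
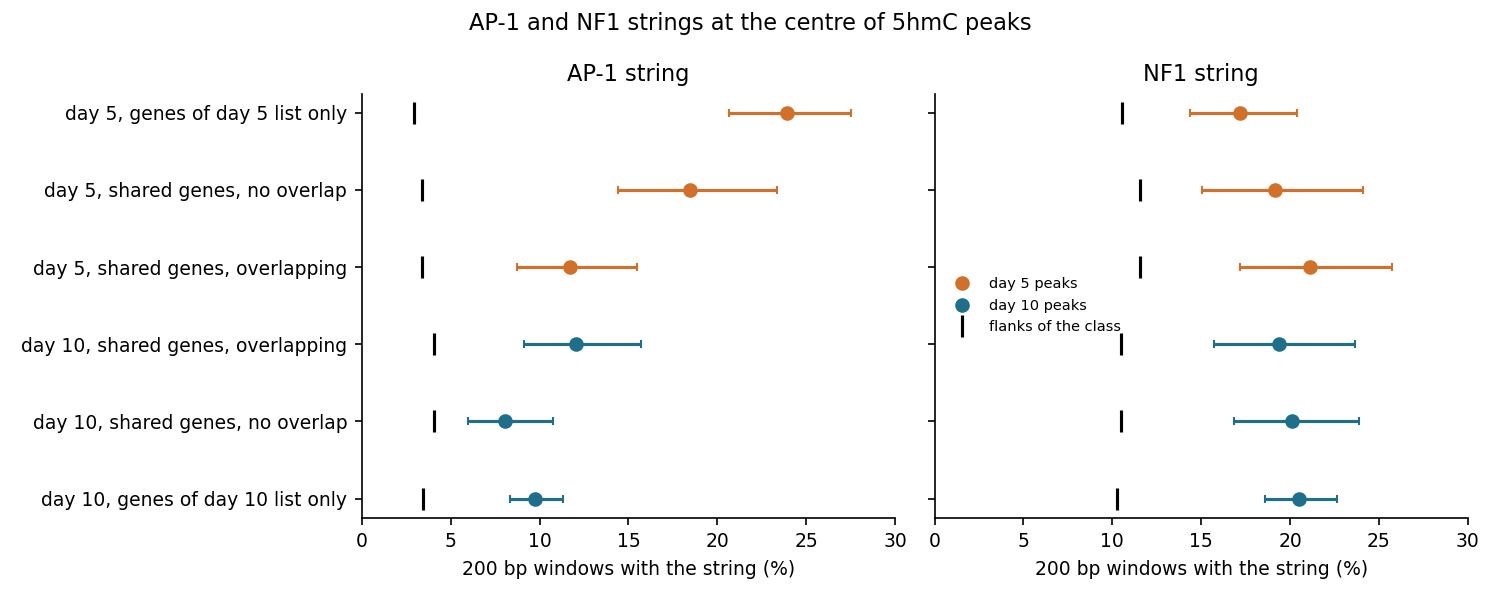
Share of 200 bp windows at peak midpoints (x axis, percent, with 95% Wilson intervals) that hold the AP-1 or the NF1 string, for day 5 (orange) and day 10 (blue) peaks by gene class and overlap between the days (y axis); black marks show the flanks of all peaks of that class and day. The AP-1 share was 23.9% at day 5-only genes and 8.05% at day 10 peaks of shared genes with no overlap, while NF1 shares lay between 17.2% and 21.1%.

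The windows were rich in CpG, the site of both marks. They held 2.34 CpG per 100 bases at day 5-only genes, 2.17 and 2.07 at shared genes (day 5 and day 10) and 1.84 at day 10-only genes, against 1.20 to 1.32 in the flanks. A window without any CpG made up 1.85% to 3.61% of these classes and 16.1% to 19.9% of the flanks. Repeats, as marked in the reference, covered 9.73% to 12.7% of the windows and 21.7% to 25.5% of the flanks.

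5mC was a readout that did not enter the classes. Of the shared genes, 139 of 510 (27.3%, 23.6 to 31.3) were also named in the day 10 5mC list, which named 5.89% of protein-coding genes. The share was 12.5% (10.1 to 15.6) for day 5-only genes, 15.8% (13.8 to 17.9) for day 10-only genes and 4.56% (4.28 to 4.86) for protein-coding genes in neither 5hmC list. Shared genes were 14.7 points above day 5-only genes (9.96 to 19.4) and 11.5 above day 10-only genes (7.22 to 16.0), and day 5-only minus day 10-only genes gave -3.22 points (-6.51 to 0.359). Among genes over 100 kb the shares were 36.2% for shared, 25.9% for day 5-only, 25.6% for day 10-only genes and 13.6% for genes in neither list. Among genes under 30 kb they were 6.94% (3.003 to 15.2), 4.15% (2.11 to 7.96), 5.76% (3.72 to 8.82) and 2.64%. Of the day 10-only genes with at least 2 peaks, 27.1% had 5mC.

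Overlap of 5hmC peaks with 5mC peaks was counted without a background share for other sequence, so it cannot be called low or high. Of the 5hmC peaks with a gene, 15 of 1231 at day 5 (1.22%, 0.740 to 2.00) and 13 of 2409 at day 10 (0.540%, 0.316 to 0.921) overlapped a day 10 5mC peak. Both kinds of list come from separate captures and thresholds (10-fold and 3-fold), and the part of this in their overlap was not tested. The day 5 peaks were wider than those of day 10, and the part of width in the difference between the days was not tested either. Of the named genes, Pxn and Pik3r1 each had a day 5 peak that overlapped a 5mC peak. Tcf7l2, a transcription factor of WNT signalling, had 2 day 5, 4 day 10 and 5 5mC peaks, none of the latter at a 5hmC peak. Map2k6, a kinase above p38, had 1, 1 and 5. Runx2 had 1 5mC peak, and Map3k1 had 1 day 5 peak in its promoter and 3 5mC peaks. The day 0 5mC list, which named 0.493% of protein-coding genes, named 7 day 5-only, 10 shared and 19 day 10-only genes.

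Lists of genes of the cartilage programme and of other lineages were then placed in the classes. Over 17 lists with 803 annotated members, 103 were named in the day 5 list and 162 in the day 10 list. With the widest day 10 peaks, as many as at day 5, the day 10 number was 103 as well, and the counts of the single lists were not recomputed in that way. The lists differ in gene length, so each is given with the mean of the decile shares of its members (length-decile share), beside the shares of 4.61% and 7.38% over all protein-coding genes.

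Among 30 chondrocyte genes, 3 were named at day 5 (10%, 3.46 to 25.6) and 8 at day 10 (26.7%, 14.2 to 44.4), against length-decile shares of 5.40% and 8.88%. Sox9, the factor that sets up the lineage, was in the day 5 list only, with a peak on chromosome 11 from 112787797 to 112789201, 6.275 kb downstream of its start and outside the annotated gene. Sox5 and Trps1 were shared. Col11a1, Col11a2, Matn3, Hapln1, Scrg1 and Pth1r were in the day 10 list only, with 1 peak each. In that order these peaks were 139, 144, 131, 54, 125 and 401 bp wide, against a median of 143 bp at day 10-only genes. Col11a1 and Col11a2 code for chains of type XI collagen, Matn3 for matrilin 3, Hapln1 for the link protein of aggrecan, and Pth1r for the PTHrP receptor. Of the defining genes of cartilage matrix, Col2a1, Acan, Col9a1, Comp, Matn1 and Snorc had no peak past the 10-fold limit in either list. That is not an absence of 5hmC, as the study describes a gain at Col2a1 and Acan from day 0 to day 10. It also measured 5hmC at single sites of both genes at day 5.

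Collagens had more members in the day 10 list. Of 44 genes, 8 were named at day 5 (18.2%, 9.51 to 32.0) and 17 at day 10 (38.6%, 25.7 to 53.4), against length-decile shares of 11.6% and 19.5%. Col3a1, Col5a2, Col12a1 and Col25a1 were in the day 5 list only. Col3a1, a fibrillar collagen of connective tissue, had its peak at its start, and Col12a1 had 2 peaks over coding exons. Of the type VI genes of the pericellular matrix, Col6a1, Col6a3 and Col6a6 were shared with overlapping peaks. Col27a1, a cartilage collagen, was shared with peaks 31742 bp apart. Col14a1 had most peaks at day 10 among the 13 in that list only, with 3, and Col5a1, Col8a1 and Col24a1 had 2.

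Of 60 TGF-beta and BMP genes, 3 were named at day 5 (5%, 1.71 to 13.7) and 11 at day 10 (18.3%, 10.6 to 29.9), against length-decile shares of 7.46% and 12.1%, and both intervals included these shares. The day 10-only members were ligands (Bmp6 and Gdf5), receptors (Tgfbr2, Tgfbr3 and Acvr1), inhibitory SMADs (Smad6 and Smad7), Ltbp1 and the BMP modulators Chrdl1 and Crim1. Acvr1 had 3 peaks, Tgfbr2 and Tgfbr3 had 2 each and Ltbp1 had 6. Gdf5, a joint and growth plate ligand, and Smad7 had their peaks at -4.43 and -4.54 kb from the start. The day 5-only members were the receptor Bmpr1b and Bmper.

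The Hedgehog genes named below stood in 1 list only, as did most named genes. Of all protein-coding genes, 2.41% were in the day 5 list only, 5.18% in the day 10 list only and 2.2% in both. Ptch1, Gli2, Gli3 and Pthlh, which are the Hedgehog receptor, the factors GLI2 and GLI3 of its response and PTHrP, were in the day 5 list only. Sufu, which holds GLI factors in the cytoplasm, with 3 peaks, and the coreceptors Boc (2) and Cdon (1) were in the day 10 list only, as were Pth1r and the Notch genes Notch2, Jag1, Rbpj and Maml2. Of the 42 genes of this list, 11.9% were named at day 5 (5.19 to 25) and 21.4% at day 10 (11.7 to 35.9), against length-decile shares of 6.19% and 10.01%. The Gli3, Pthlh and Ptch1 peaks held an AP-1 string and that of Gli2 did not, where 49.0% of whole peaks at day 5-only genes held one.

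WNT genes were named in both lists. Of 84, 9 had a day 5 peak (10.7%, 5.74 to 19.1) and 19 a day 10 peak (22.6%, 15.0 to 32.6), against length-decile shares of 6.53% and 10.6%. Wnt5b, a noncanonical ligand of the growth plate, had 3 peaks at day 5 and 1 at day 10, and its receptor Ror2 had 2 and 3, with no overlap in either gene. Wnt1, Lef1 and Sfrp5 were day 5-only, whereas the coreceptors Lrp5 and Lrp6 (2 peaks each), the receptors Fzd6 and Fzd9 and the antagonists Frzb and Wif1 were day 10-only. For the insulin, IGF and PI3K list, which bears on the inducing medium, 9 of 52 genes were named at day 5 (17.3%, 9.38 to 29.7) and 12 at day 10 (23.1%, 13.7 to 36.1), against length-decile shares of 7.97% and 12.9%. Mtor had 4 day 10 peaks and none at day 5, and Igf1r had 2 and none. Rptor, the partner of MTOR, had 2 at each day with 1 region in common, and Pik3cb, a catalytic subunit of PI3K, was day 5-only. In the FGF and MAP kinase list 7 and 11 of 73 genes were named (9.59% and 15.1%), close to the length-decile shares of 9.16% and 15.1%.

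Genes for AP-1 and related bZIP factors had more members in the day 5 list, 7 of 44 (15.9%, 7.93 to 29.4), than in the day 10 list, 5 (11.4%, 4.95 to 24.0), and these intervals overlap widely. The length-decile shares were 4.35% and 6.96%. Fosb, Fosl2, Nfe2l2, Creb3l2 and Hlf were day 5-only, Mafa and Creb5 shared, and Atf6, Jdp2 and Tef day 10-only. The Fosl2, Creb3l2 and Hlf peaks held an AP-1 string and those of Fosb and Nfe2l2 did not, where 49.0% of whole peaks at day 5-only genes held one. Most other AP-1 members, among them Fos and Jun, had no peak.

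Of 77 skeletal and mesenchymal transcription factors, 17 had a day 5 peak (22.1%, 14.3 to 32.5) and 21 a day 10 peak (27.3%, 18.6 to 38.1), against length-decile shares of 10.01% and 16.9%, and 12 of these were shared. The shared genes were Runx1, Runx2, Sox5, Prrx2, Nfib, Nfic, Yap1, Foxp1, Foxp4, Meis1, Trps1 and Elk3. Runx3, Sox4, Sox9, Ets2 and Creb3l2 were day 5-only, and the day 10-only genes included Nfia, Nfix, Ebf1, Arid5b, Glis3, Nfatc2, Zfhx3 and Bnc2. Thus Nfib and Nfic, 2 of the 4 NF1 factor genes, were shared, and the others had a day 10 peak.

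Genes of actin, its small GTPases and focal adhesions had the highest shares of these lists at day 5, 30 of 99 (30.3%, 22.1 to 40.0), and 38 at day 10 (38.4%, 29.4 to 48.2), against length-decile shares of 12.2% and 20.7%. Of these, 19 were shared, among them Pxn (paxillin, 2 and 3 peaks), Itgb5 (an integrin chain, 2 and 3), Palld (1 and 4) and Arhgef3 (3 and 4), each with an overlap. The day 5-only members included Dock1, Dock5 and Dock9, which activate Rac and CDC42, and Myh9, a nonmuscle myosin. The day 10-only members included Actb, Rhob, Tiam2 (4 peaks) and Itga8 (2). Of the genes for making, reading or removing cytosine marks, Mbd2 and Gadd45b were in the day 5 list only and Tet1 (2 peaks), Gadd45g and Cxxc5 in the day 10 list only, 5 of 27 genes in all. The list's shares were 7.41% and 11.1%, against length-decile shares of 4.62% and 6.96%.

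Lists of other lineages were placed beside them. Osteoblast genes had 2 of 16 named at each day, and adipocyte genes 3 and 2 of 16, with Pparg and Prdm16 shared. Their length-decile shares were 4.81% and 7.90% for osteoblast and 6.70% and 11.2% for adipocyte genes. No muscle gene of 23 was named at day 5 and 1 (Pax3) at day 10, and of 24 blood cell genes none and 1 (Hba-a1), against length-decile shares of 6.08% and 9.98% for muscle and 4.94% and 8.10% for blood cell genes. Synaptic and neuronal genes, whose median length was 904.4 kb, were below their length-decile shares of 16.3% and 28.4%, with 4 of 62 at day 5 (6.45%, 2.54 to 15.4) and 9 at day 10 (14.5%, 7.83 to 25.3). Of 55 ribosomal protein genes none was named, which allows a share of up to 6.53% by the interval, against length-decile shares of 0.971% and 1.80%. Since DNA of the whole culture was captured, a mark in more cells and more marked copies per cell cannot be told apart.

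**Figure D5:**
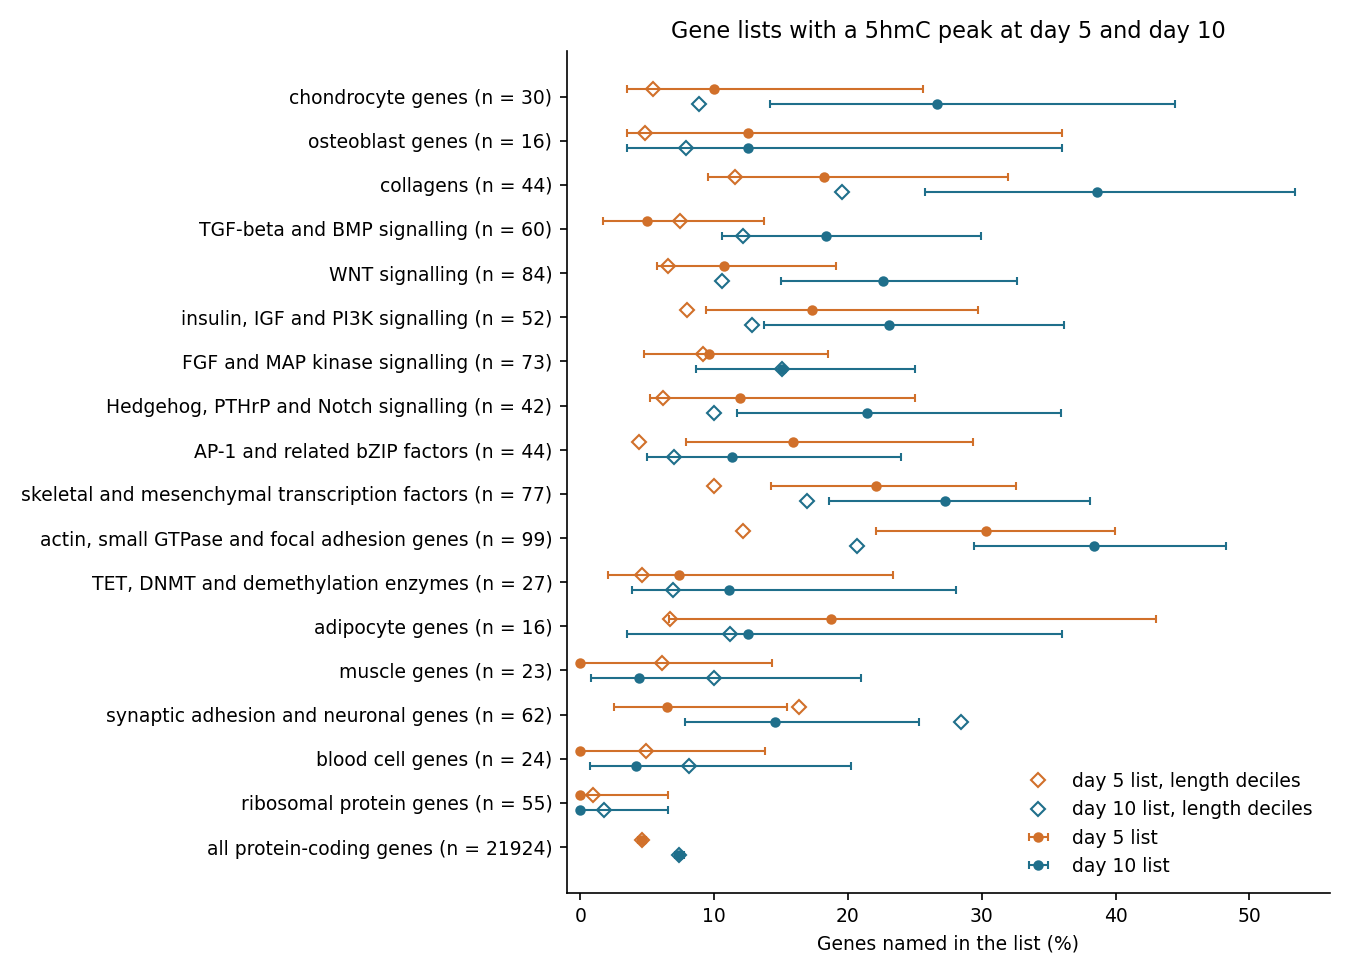
Share of each gene list named in the day 5 list (orange) and the day 10 list (blue) (x axis, percent; points with 95% Wilson intervals), beside the mean share of the length deciles of its members (open diamonds); n is the number of annotated genes. Actin, small GTPase and focal adhesion genes lie at 30.3% and 38.4%, against 4.61% and 7.38% over all protein-coding genes.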

How the data were processed

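DNA of 7 ATDC5 samples was profiled. Per the study's methods and the submitters' processing notes, the authors trimmed reads with cutadapt, aligned them with BWA to GRCm38 (mm10) and called peaks with MACS 1.4.2. The deposited files are 4 peak lists, whose values are peak coordinates with gene symbols and accessions, no score, signal or count. Per the file headers the 5hmC lists hold regions of at least 10-fold enrichment in merged samples and the 5mC lists of at least 3-fold. The control and the depth are not given in the sources used here, and the study describes its calls as gain or loss between stages, so the lists may hold differences between samples. A different control or threshold would change which genes are named.

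Empty rows (27818 and 25449) were dropped. Of 2286 symbols, 2280 were matched to GENCODE mouse release 21, 202 under another name and 6 of these from symbols that a spreadsheet had turned into dates, through their accessions. Peaks were compared with python 3.11.15, numpy 2.4.6, scipy 1.17.1 and pandas 2.3.3, by an overlap of at least 1 bp. The functions were tested on simulated data. Named were the 10 genes with most peaks of each class (ties by peak length; genes with no peak within 10000 bp of their annotated position were left out too, which the rule had not stated and which removed Mir3098), the members of the gene lists with a peak, and for sequences peaks of at most 300 bp with a string, at most 3 for each class. Peaks on chromosome 18 were left out of the choice of sequences. The split of AP-1 shares by overlap, position and gene length was added later. The gene classes, the lists and the members were chosen with earlier results of these data known. Alternatives covered the peaks used, the gene assignment, the overlap, the position rule, the window and repeats. The input sample was not used here, and some list members are not reported here.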

Additional observations from a re-analysis of the deposited data

How the results depend on the processing

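Of 103 alternatives, 66 left the value within its interval or within 1.5 times the main count, and 0 changed the sign of a difference whose interval left out 0. The AP-1 difference of shared minus day 10-only genes at day 10, 0.0453 points, was -0.00561 without windows that were mostly repeat. With the widest day 10 peaks, as many as at day 5, the day 10-only genes (595) were fewer than the day 5-only genes (717), the share of day 5 genes found again 32.9% and the list members at day 10 103, as many as at day 5. With peaks of at least the median width of their list, the classes held 337, 230 and 733 genes and the share was 40.6%, and with at least 2 peaks per gene 67, 60 and 369 genes. By the midpoint, day 10 minus day 5 was -1.95 points in promoters, -2.94 in coding exons and 2.91 in other introns. With the longest transcript it was -1.76 in promoters and -11.4 in coding exons. With peaks assigned here to protein-coding genes, 19.0% of day 10-only genes had 5mC. Without genes of 1 peak, 15.6% of day 5-only and 27.1% of day 10-only genes had 5mC, and their median lengths were 106.1 and 141.9 kb.

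In 400 bp windows the AP-1 shares were 36.4% (day 5-only), 24.8% and 16.6% (shared, day 5 and day 10) and 15.8% (day 10-only), and the NF1 shares 29.0%, 32.0%, 36.5% and 34.1%. In whole peaks AP-1 was at 49.0%, 39.6% and 8.30% (day 5-only, shared at day 5, day 10-only) and NF1 at 45.6%, 51.5% and 17.1%. Day 5-only minus day 10-only AP-1 was 20.6 points in 400 bp and 40.7 in whole peaks, and shared genes at day 5 minus day 10 31.1 in whole peaks. Whole peaks differ in width between the days, with medians of 799.5 bp (day 5-only) and 850 bp (shared) at day 5. At day 10 they were 158 bp (shared) and 143 bp (day 10-only), and the part of width in these differences was not tested. The gap between shared and day 5-only genes at day 5 was -9.43 to -11.6 points.

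No paired analysis was possible because the samples of a day were merged into 1 list, and no replicate was left out. The depth is unknown, and a gene missing from a list is one below the authors' limit, not one without the mark.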

Other observations

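Families of genes, grouped by symbol after earlier results were known, were placed in the same classes. ADAMTS proteases, which cut aggrecan and procollagens, had 5 shared, 6 day 10-only and 0 day 5-only genes of 24, so that 45.8% (27.9 to 64.9) were named at day 10 against a length-decile share of 17.7%. Genes with a Cacn symbol, named for calcium channels, had 9 of 26 named at each day (34.6%, 19.4 to 53.8), 6 of them shared. Their length-decile shares were 11.5% and 19.5%. DOCK exchange factors had 3 of 11 at day 5 and none at day 10, which allows a share of up to 25.9% by the interval, against length-decile shares of 16.1% and 27.9%. TBC1D regulators of Rab GTPases had 5 day 5-only, 1 shared and 2 day 10-only genes of 22 (length-decile shares 8.55% and 13.7%), and nuclear receptors 4, 4 and 3 of 42 (7.67% and 12.5%). Cadherins and protocadherins had 3 at day 5 and 6 at day 10 of 90 (length-decile shares 9.86% and 16.8%), and the Zfp zinc finger genes 6 and 13 of 365 (1.64% and 3.56%, against 3.61% and 5.48%). Of 1092 olfactory receptor genes 1 was named, at day 10 (length-decile shares 1.07% and 1.85%), and of 326 vomeronasal receptor genes none (2.30% and 3.41%).

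Of the symbols, 22 could not be placed. Of these, 6 had no annotated symbol and the others no peak within 10000 bp of the annotated gene, and 14 of the 22 were microRNAs. Mir1195 had 1 day 5 peak and 6 day 10 peaks by its symbol. The values of such symbols rest on the authors' assignment.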
